A study of Mus musculus with 9 samples.

Results

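The genes described here are interferon-stimulated genes, 37 genes listed by name, of which 35 have a row among the 32285 genes of the count tables. Mx1 and Mx2 were not analysed here. All 35 passed the filter on low counts (at least 5 counts in at least 3 libraries), which kept 17173 genes. The list falls into the Ifi27 family, with the 3 genes Ifi27, Ifi27l2a and Ifi27l2b, and 32 others. RNA was measured in 9 libraries of primary stromal vascular fraction (SVF) cells, the non-adipocyte cells obtained by digesting fat, from the subcutaneous white adipose tissue of WT neonatal mice aged 4 to 6 days. The 3 MIZ libraries come from cells differentiated for 6 days with 25 µM mizoribine (MIZ), an inhibitor of inosine monophosphate dehydrogenase and so of guanine nucleotide synthesis, the 3 vehicle libraries from cells differentiated for 6 days with vehicle, and the 3 undifferentiated libraries from cells that were not induced. Both differentiated groups received insulin, dexamethasone and IBMX and then insulin, troglitazone, rosiglitazone and T3, so differentiation and these agents cannot be told apart. Pellets from individual animals were plated separately, and SVF cultures hold more than 1 cell type. Total counts ran from 28760721 in vehicle replicate 1 to 55288455 in undifferentiated replicate 3.

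Interferons are secreted proteins that cells release when they sense viral or misplaced nucleic acid. Type I interferons bind the receptor IFNAR, and the kinases JAK1 and TYK2 then activate ISGF3, a complex that includes STAT2 and IRF9 and binds interferon-stimulated response elements. The genes switched on in this way restrain viral translation and replication, degrade RNA, present antigen, sense nucleic acid and feed back on the pathway, and many are also set at a lower, tonic level in cells with no infection.

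Of the 35 genes, 4 were higher and 21 lower in MIZ than in vehicle cells at an adjusted p under 0.05, and 10 did not pass. Over all genes tested in this comparison 35.9% were called higher and 35.1% lower. Their median log2 fold change was -0.87, against 0.02 over all genes. In vehicle against undifferentiated cells 24 were higher and 3 lower, where 36.2% of all genes were called higher and 41.5% lower, and their median was 0.89, against -0.08 over all genes. In MIZ against undifferentiated cells 13 were higher and 3 lower, where 33.7% of all genes were called higher and 33.3% lower, with a median of 0.41, against about 0 over all genes. In each group the 3 libraries measure the spread between animals or plates, and fewer cells of a type cannot be told apart from less RNA per cell in bulk samples.

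The Ifi27 family encodes small hydrophobic proteins of the FAM14 type, and IFI27 is a widely used human marker of the type I interferon response. The 3 mouse genes lie side by side on chromosome 12 (GRCm38). Ifi27 spans 103434211 to 103440239 on the plus strand, Ifi27l2a spans 103442167 to 103443680 and Ifi27l2b spans 103450898 to 103457223, both on the minus strand. None shares exonic bases with another annotated gene. The longest transcripts of Ifi27l2a and Ifi27l2b were 87.2% identical over their best alignment of 273 bases, and neither held a stretch of 100 bases or more at 97% identity or above to any other gene.

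Each of the 3 took a different course. Ifi27 had 109, 102 and 113 CPM (counts scaled to the size of the library) in MIZ cells, against 335, 318 and 283 CPM in vehicle cells and 76.7, 70.7 and 73.9 CPM in undifferentiated cells. No 2 groups overlapped, vehicle cells standing highest and MIZ cells between the others. Its log2 fold change was -1.53 ± 0.07 (SE, adjusted p = 4.59e-09) in MIZ against vehicle, 0.55 ± 0.07 (adjusted p = 2.88e-05) in MIZ against undifferentiated and 2.08 ± 0.07 (adjusted p = 3.09e-10) in vehicle against undifferentiated cells.

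Ifi27l2a was higher in both differentiated groups, and highest in MIZ cells. It had 36.1, 46.3 and 40.6 CPM in MIZ cells, against 27, 28.8 and 19.9 CPM in vehicle cells and 14, 14.5 and 12.5 CPM in undifferentiated cells. Every MIZ library lay above every vehicle library, and every vehicle library above the undifferentiated ones. The log2 fold changes were 0.70 ± 0.13 (adjusted p = 0.000658) in MIZ against vehicle, 1.59 ± 0.14 (adjusted p = 1.78e-06) in MIZ against undifferentiated and 0.89 ± 0.14 (adjusted p = 0.000126) in vehicle against undifferentiated cells.

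Ifi27l2b had few counts outside MIZ cells. The libraries held 2284, 1812 and 1731 counts in MIZ cells, against 6, 5 and 8 counts in vehicle cells and 16, 28 and 29 counts in undifferentiated cells. This came to 51.7, 49.2 and 51.2 CPM in MIZ cells, against 0.225, 0.107 and 0.178 CPM in vehicle cells and 0.364, 0.629 and 0.495 CPM in undifferentiated cells. The log2 fold change was 8.27 ± 0.16 (adjusted p = 2.45e-11) in MIZ against vehicle, rank 6 from the top of 17173 genes, and 6.67 ± 0.13 (adjusted p = 7.56e-11) in MIZ against undifferentiated cells. Vehicle cells were lower than undifferentiated cells, by a log2 fold change of -1.61 ± 0.28 (adjusted p = 0.00034), a difference that rests on 5 to 8 counts per vehicle library.

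**Figure D1:**
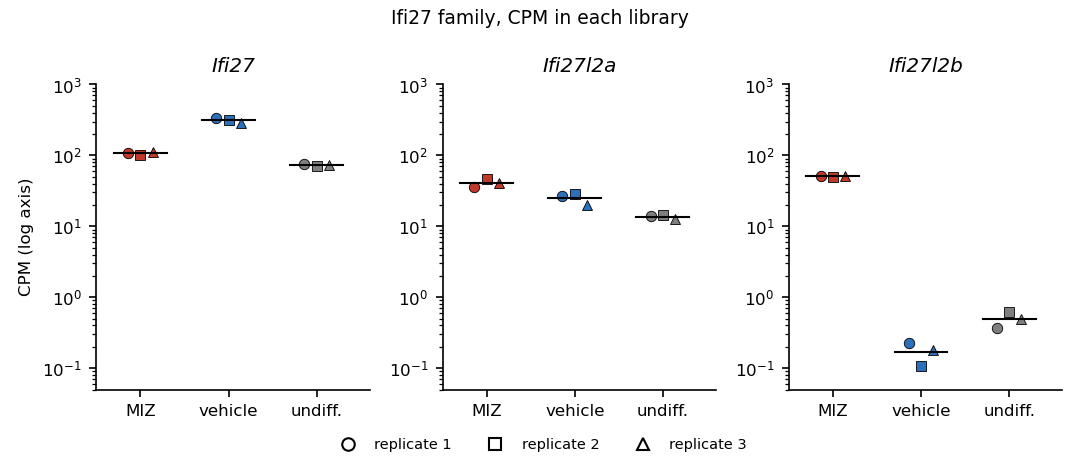
CPM (log axis) of Ifi27, Ifi27l2a and Ifi27l2b in each of the 9 libraries, with a line at the mean of each group. Ifi27 is highest in vehicle cells (283 to 335 CPM), Ifi27l2a in MIZ cells (36.1 to 46.3 CPM), and Ifi27l2b stays at or below 0.629 CPM outside the MIZ libraries, where it reaches 49.2 to 51.7 CPM.

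As a share of all counts on the 3 genes, Ifi27l2b made up 26.3%, 25% and 25% in MIZ cells, against 0.0621%, 0.0309% and 0.0586% in vehicle cells and 0.399%, 0.733% and 0.570% in undifferentiated cells. Ifi27 made up 51.5% to 55.3% of the family in MIZ cells, against 91.7% to 93.4% in vehicle cells and 82.3% to 85.1% in undifferentiated cells. The sum of the family was 197 to 205 CPM in MIZ cells and lay below the 303 to 362 CPM of vehicle cells and above the 85.8 to 91.0 CPM of undifferentiated cells. Per kilobase of exon, Ifi27l2a averaged 88.6, Ifi27 73.4 and Ifi27l2b 46.4 CPM per kb in MIZ cells, the 3 highest levels among the 35 genes, followed by Bst2 at 26.8 CPM per kb. In vehicle cells Ifi27 led with 213 CPM per kb and Ifi27l2b came last with 0.156 CPM per kb. In undifferentiated cells Bst2 (51.5 CPM per kb) and Ifi27 (50.3 CPM per kb) were highest.

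Within 100 kb of the cluster, other genes moved in both directions. Asb2, which encodes a substrate receptor of a cullin ubiquitin ligase, averaged 3.75 CPM in MIZ cells, against 0.268 CPM in vehicle cells and 0.396 CPM in undifferentiated cells, a log2 fold change of 3.71 ± 0.24 (adjusted p = 1.23e-07) in MIZ against vehicle. Ddx24, an RNA helicase gene, averaged 114 CPM in MIZ cells, against 145 CPM in vehicle cells and 89.9 CPM in undifferentiated cells. Its log2 fold change was -0.35 ± 0.05 (adjusted p = 9.01e-05) in MIZ against vehicle. The deubiquitinase gene Otub2 was lower in MIZ than in vehicle cells as well, by a log2 fold change of -0.41 ± 0.09 (adjusted p = 0.00186). These neighbours were chosen by position after the values of the family were known.

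Among the 32 other genes, 2 were higher and 20 lower in MIZ than in vehicle cells (median -0.88 on the log2 scale). Over all genes tested 35.9% were higher and 35.1% lower in this comparison. In vehicle against undifferentiated cells 22 of the 32 were higher and 2 lower, with a median of 1.00. There 36.2% of all genes were higher and 41.5% lower. In MIZ against undifferentiated cells 10 were higher and 3 lower, with a median of 0.37. The 10 are 31.2% of the 32, near the 33.7% of all genes called higher, and 33.3% of all genes were called lower. By group mean over all 35 genes, 19 ran from vehicle at the top through MIZ to undifferentiated cells and 9 ran from vehicle through undifferentiated to MIZ cells. Only Ifi27l2a, Gbp2 and Ifi35 had the order MIZ, vehicle, undifferentiated, and only Ifi27l2b the order MIZ, undifferentiated, vehicle. Ifit2, Samhd1 and Trim30a had their highest mean in undifferentiated cells and their lowest in vehicle cells.

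**Figure D2:**
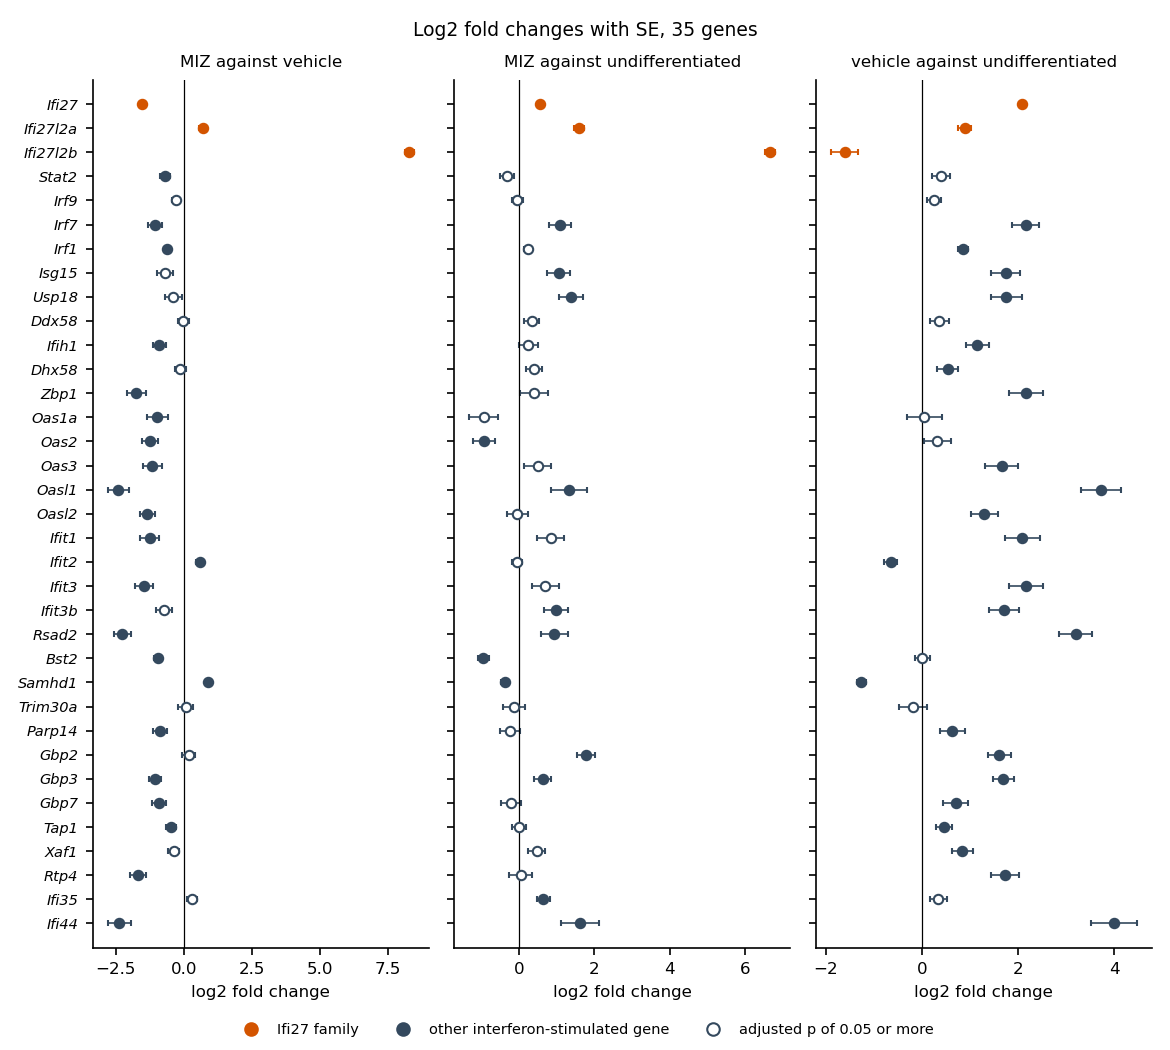
Log2 fold change (points) with SE (bars) of the 35 genes in the 3 comparisons, ordered by role, with filled points at an adjusted p under 0.05 and separate x axes for each panel. In MIZ against vehicle, Ifi27l2b lies at 8.27 while 21 genes are called lower, and in vehicle against undifferentiated 24 are called higher.

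Promoter sequence was searched for both motifs that interferon signalling uses. The promoter set used here runs from 250 bases before to 50 bases after each annotated start (RefSeq, GRCm38.p6), and 26 of the 35 genes had an entry. All 3 genes of the Ifi27 family lacked an entry and were not searched. The same holds for Usp18, Dhx58, Zbp1, Oas2, Parp14 and Rtp4. The core of the interferon-stimulated response element, GAAANNGAA on either strand, was present in at least 1 promoter of 16 of these 26 genes (61.5%) and of 2638 of 27025 genes of the set (9.76%). A gamma-activated site, TTCNNNGAA, which reads the same on both strands and is used in the response to interferon-gamma, was present for 7 of the 26 (26.9%) and for 9.55% of genes of the set, and in Bst2 it overlapped a response element core. Of the 16 genes with the response element core, 11 were lower and 0 higher in MIZ than in vehicle cells. Of the 10 without it 5 were lower and 2, Ifit2 and Samhd1, were higher. Over all genes tested 35.1% were lower and 35.9% higher. Both groups are small and come from a list chosen with results known, and a link between the motif and the change was not tested. A match is only a stretch of letters, and binding was not measured. The stretches below are shown because they hold the matches (in capitals) of Rsad2, a gene among the 4 with the largest falls, of Isg15, the name-giving gene of the group, of the near-identical pair Ifit3 and Ifit3b, and of Gbp2, which stayed high in MIZ cells. They are written from 5′ to 3′ on the strand of the gene, with 30 bases on each side.
Rsad2: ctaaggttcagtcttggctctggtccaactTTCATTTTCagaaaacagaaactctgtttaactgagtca
Isg15: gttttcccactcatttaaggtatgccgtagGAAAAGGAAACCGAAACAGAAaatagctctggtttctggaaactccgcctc
Ifit3: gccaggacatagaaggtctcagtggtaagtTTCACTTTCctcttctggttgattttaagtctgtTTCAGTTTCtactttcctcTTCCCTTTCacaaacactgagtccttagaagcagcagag
Ifit3b: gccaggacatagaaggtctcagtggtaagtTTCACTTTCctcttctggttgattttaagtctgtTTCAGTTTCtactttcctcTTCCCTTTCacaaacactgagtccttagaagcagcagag
Gbp2: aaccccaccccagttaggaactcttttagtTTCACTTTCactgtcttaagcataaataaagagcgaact

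The Rsad2 stretch lies at chr12:26456533-26456601, minus strand, and its match begins 119 bases before the start. That of Isg15 lies at chr4:156200846-156200926, minus strand, where 3 matches overlap in 1 run of capitals. The Ifit3 stretch (chr19:34583344-34583465, plus strand) and the Ifit3b stretch (chr19:34607740-34607861, plus strand) are the same letter for letter, each with 3 matches, and the Gbp2 stretch lies at chr3:142620575-142620643, plus strand, with a single match that begins 58 bases before the start.

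The genes of signalling and transcription were lower in MIZ than in vehicle cells in 3 of 4 cases, as were 35.1% of all genes. Irf7, the regulator that amplifies interferon production, had 20.9, 18.8 and 11.4 CPM in MIZ cells, against 51.9, 31.6 and 24.5 CPM in vehicle cells and 7.23, 7.84 and 8.86 CPM in undifferentiated cells. The groups did not overlap, and its log2 fold change was -1.06 ± 0.27 (adjusted p = 0.00429) in MIZ against vehicle and 2.16 ± 0.28 (adjusted p = 2.99e-05) in vehicle against undifferentiated cells. Irf1, a factor induced chiefly by interferon-gamma, was lower by a log2 fold change of -0.61 ± 0.11 (adjusted p = 0.000329) and Stat2, the ISGF3 subunit, by -0.71 ± 0.19 (adjusted p = 0.00578) in MIZ against vehicle. Irf9, the DNA-binding subunit of ISGF3, did not pass in any of the 3 comparisons, with log2 fold changes of -0.29, -0.04 and 0.25. Irf7, Usp18, Dhx58, Oasl1, Tap1 and Ifi35 share 38 to 290 exonic bases with a gene on the opposite strand, a limit for counts made with an unknown strand setting, and Irf9 and Rtp4 share 123 and 296 bases with a gene on the same strand.

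Neither gene of the ISG15 system passed in MIZ against vehicle. Isg15, a ubiquitin-like modifier, had 19.7, 19.3 and 10.6 CPM in MIZ cells, against 41.5, 21.5 and 18.7 CPM in vehicle cells and 8.2, 8 and 7.92 CPM in undifferentiated cells. The MIZ and vehicle libraries overlapped, and the log2 fold change was -0.69 ± 0.29 (adjusted p = 0.0513). It passed as lower in 6 of 18 alternatives (adjusted p from 0.0124 to 0.202 over all 18), and was -0.28 without vehicle replicate 1. Isg15 and Usp18, the protease that removes ISG15 and damps IFNAR signalling, both exceeded undifferentiated cells in both differentiated groups. Their log2 fold changes were 1.05 and 1.38 in MIZ (adjusted p = 0.0102 and 0.0029) and 1.74 and 1.76 in vehicle cells (adjusted p = 0.000286 and 0.000403).

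Among the sensors of nucleic acid, Zbp1 and Ifih1 were lower with MIZ. Zbp1, a sensor of Z-form nucleic acid that can start necroptosis, had 9.67, 9.58 and 4.79 CPM in MIZ cells, against 43.7, 23.1 and 15.9 CPM in vehicle cells and 5.16, 5.91 and 7.12 CPM in undifferentiated cells. All vehicle libraries lay above all others, whereas MIZ and undifferentiated libraries overlapped. The log2 fold change was -1.75 ± 0.35 (adjusted p = 0.00101) in MIZ against vehicle and 2.16 ± 0.36 (adjusted p = 0.000201) in vehicle against undifferentiated cells. Ifih1, which encodes the double-stranded RNA sensor MDA5, was lower by a log2 fold change of -0.90 ± 0.24 (adjusted p = 0.00636). The log2 fold changes of Ddx58, which encodes RIG-I, and of Dhx58, which encodes LGP2, were -0.02 (adjusted p = 0.932) and -0.13 (adjusted p = 0.597).

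The 5 OAS genes, oligoadenylate synthetases and their relatives that act through RNase L or on translation, were all lower in MIZ than in vehicle cells. So were 35.1% of all genes. Oasl1, which in mouse represses translation of Irf7, fell furthest of the 35 genes. It had 2.29, 1.95 and 0.680 CPM in MIZ cells, against 13.1, 7.70 and 6.29 CPM in vehicle cells and 0.909, 0.719 and 0.427 CPM in undifferentiated cells. The vehicle libraries stood apart, and MIZ replicate 3 lay within the range of undifferentiated cells. Its log2 fold change was -2.41 ± 0.38 (adjusted p = 0.000181) in MIZ against vehicle and 3.73 ± 0.42 (adjusted p = 9.41e-06) in vehicle against undifferentiated cells. In MIZ against undifferentiated cells it was 1.32 ± 0.48 (adjusted p = 0.0299), and this call was lost without undifferentiated replicate 2 or 3 or MIZ replicate 1 or 2 (adjusted p up to 0.136).

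The other OAS genes had log2 fold changes of -0.98 to -1.34 in MIZ against vehicle. Oas2 was also lower than in undifferentiated cells, with 4.76, 4.48 and 2.69 CPM in MIZ cells, against 5.64, 7.46 and 9.56 CPM in undifferentiated cells, a log2 fold change of -0.92 ± 0.30 (adjusted p = 0.0179) that did not pass without MIZ replicate 3 (adjusted p = 0.0656) or without undifferentiated replicate 3. Oas1a is uncertain for a further reason, since 100% of its longest transcript lies in stretches at least 97% identical to Oas1g. Its call in MIZ against vehicle (log2 fold change -0.98, adjusted p = 0.043) was lost without any 1 of 7 libraries, among them vehicle replicate 1 (log2 fold change -0.37).

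The IFIT family, proteins that bind the 5′ end of foreign RNA and block its translation, did not move as 1 group. Ifit3 had 24.7, 21.9 and 9.84 CPM in MIZ cells, against 82.6, 37.4 and 39.1 CPM in vehicle cells and 11.7, 12.2 and 11.1 CPM in undifferentiated cells. Vehicle libraries stood above all others, and its log2 fold change was -1.47 ± 0.34 (adjusted p = 0.00265) in MIZ against vehicle and 2.17 ± 0.35 (adjusted p = 0.000176) in vehicle against undifferentiated cells. Ifit1 was lower in MIZ than in vehicle cells too, by -1.25 ± 0.35 (adjusted p = 0.00761), and Ifit3b had a log2 fold change of -0.73 ± 0.31 (adjusted p = 0.053). Ifit3 and Ifit3b are near-identical copies, with 97.4% and 84.8% of their longest transcripts in shared stretches, and how reads were split between them is unknown.

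Ifit2 went the other way. It had 20.0, 18.7 and 16.8 CPM in MIZ cells, against 15.7, 9.79 and 11.9 CPM in vehicle cells and 19.0, 19.2 and 19.6 CPM in undifferentiated cells. Vehicle libraries lay below all others, while MIZ and undifferentiated libraries overlapped. The log2 fold change was 0.59 ± 0.14 (adjusted p = 0.00275) in MIZ against vehicle and -0.65 ± 0.14 (adjusted p = 0.00121) in vehicle against undifferentiated cells.

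Of the 5 antiviral effectors measured, 3 were lower and 1 higher in MIZ than in vehicle cells. Among all genes tested, 35.1% were lower and 35.9% higher. Rsad2, which encodes viperin, the enzyme that makes a chain-terminating nucleotide, had 7.52, 6.19 and 3.16 CPM in MIZ cells, against 41.3, 21.1 and 20.2 CPM in vehicle cells and 2.7, 3.51 and 2.7 CPM in undifferentiated cells. All vehicle libraries lay well above the rest, and MIZ replicate 3 lay within the undifferentiated range. Its log2 fold change was -2.26 ± 0.32 (adjusted p = 8.14e-05) in MIZ against vehicle and 3.20 ± 0.34 (adjusted p = 5.7e-06) in vehicle against undifferentiated cells. Its value in MIZ against undifferentiated cells, 0.94 ± 0.36 (adjusted p = 0.0374), did not pass without any 1 of the 3 undifferentiated libraries or without MIZ replicate 1 or 2 (adjusted p up to 0.164).

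Samhd1, the dNTP hydrolase that limits reverse transcription and keeps dNTP pools low, was the rising effector. It had 83.8, 76.8 and 73.1 CPM in MIZ cells, against 50, 37.3 and 39.3 CPM in vehicle cells and 97.2, 102 and 102 CPM in undifferentiated cells. The 3 groups did not overlap, MIZ cells lying between the others. The log2 fold change was 0.89 ± 0.10 (adjusted p = 8.83e-06) in MIZ against vehicle, -0.37 ± 0.09 (adjusted p = 0.00529) in MIZ against undifferentiated and -1.26 ± 0.10 (adjusted p = 3.51e-07) in vehicle against undifferentiated cells.

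Bst2, which encodes tetherin and holds budding virus at the cell surface, was lower in MIZ cells than in either other group. It had 27.1, 26.9 and 18.7 CPM in MIZ cells, against 57.5, 45.1 and 38.7 CPM in vehicle cells and 47.2, 46.6 and 45.6 CPM in undifferentiated cells. MIZ libraries lay below all others, and the remaining groups overlapped. The log2 fold change was -0.95 ± 0.15 (adjusted p = 0.000213) in MIZ against vehicle and -0.94 ± 0.15 (adjusted p = 0.000262) in MIZ against undifferentiated cells. Parp14, an ADP-ribosyltransferase, was lower by -0.87 ± 0.26 (adjusted p = 0.0124) in MIZ against vehicle, and Trim30a, a RING-domain protein, had a log2 fold change of 0.06 (adjusted p = 0.851).

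The guanylate-binding proteins, GTPases that attack the membranes of intracellular pathogens, were all higher in vehicle than in undifferentiated cells. So were 36.2% of all genes. However, the call of Gbp7 (log2 fold change 0.70, adjusted p = 0.0282) was lost in 5 of 18 alternatives. Among them were the fits without vehicle replicate 1 (0.28, adjusted p = 0.0622) and without any 1 of the 3 undifferentiated libraries. Gbp2 had 70.8, 70.8 and 60.3 CPM in MIZ cells, against 90.9, 49.7 and 40.8 CPM in vehicle cells and 20.2, 19.2 and 19.4 CPM in undifferentiated cells. MIZ and vehicle libraries overlapped, with a log2 fold change of 0.17 ± 0.23 (adjusted p = 0.529), and both stood clear of undifferentiated cells, by log2 fold changes of 1.78 ± 0.24 (adjusted p = 5.78e-05) in MIZ and 1.61 ± 0.24 (adjusted p = 8.48e-05) in vehicle cells. Without vehicle replicate 1, Gbp2 was higher in MIZ than in vehicle cells (log2 fold change 0.57, adjusted p = 6.89e-05). Gbp3 and Gbp7 were lower in MIZ than in vehicle cells, by log2 fold changes of -1.06 ± 0.22 (adjusted p = 0.00106) and -0.92 ± 0.26 (adjusted p = 0.00889).

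Ifi44, an interferon-induced gene whose human product restrains viral replication, had the largest rise with differentiation among the 35. It had 4.89, 5.89 and 3.58 CPM in MIZ cells, against 45.1, 18.9 and 11.6 CPM in vehicle cells and 1.45, 1.37 and 1.77 CPM in undifferentiated cells. The groups did not overlap, although the vehicle libraries themselves were far apart. Its log2 fold change was -2.37 ± 0.42 (adjusted p = 0.000434) in MIZ against vehicle, 1.63 ± 0.50 (adjusted p = 0.0139) in MIZ against undifferentiated and 4 ± 0.47 (adjusted p = 1.35e-05) in vehicle against undifferentiated cells. Without vehicle replicate 1 these became -1.67 in MIZ against vehicle and 3.31 in vehicle against undifferentiated cells, and both still passed (adjusted p = 1.17e-05 and 3.53e-08).

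Of the 4 remaining genes, Rtp4 and Tap1 were lower in MIZ than in vehicle cells. Rtp4, a chaperone of membrane receptors that damps the response in mice, was lower by -1.68 ± 0.30 (adjusted p = 0.000397) in MIZ against vehicle and higher by 1.72 ± 0.29 (adjusted p = 0.000248) in vehicle against undifferentiated cells. Tap1, a subunit of the peptide transporter for antigen presentation, was lower by -0.47 ± 0.18 (adjusted p = 0.0331), a call lost without vehicle replicate 1 or MIZ replicate 3. Xaf1, a partner of the apoptosis inhibitor XIAP, and Ifi35 did not pass in MIZ against vehicle, with log2 fold changes of -0.38 (adjusted p = 0.136) and 0.30 (adjusted p = 0.14).

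**Figure D3:**
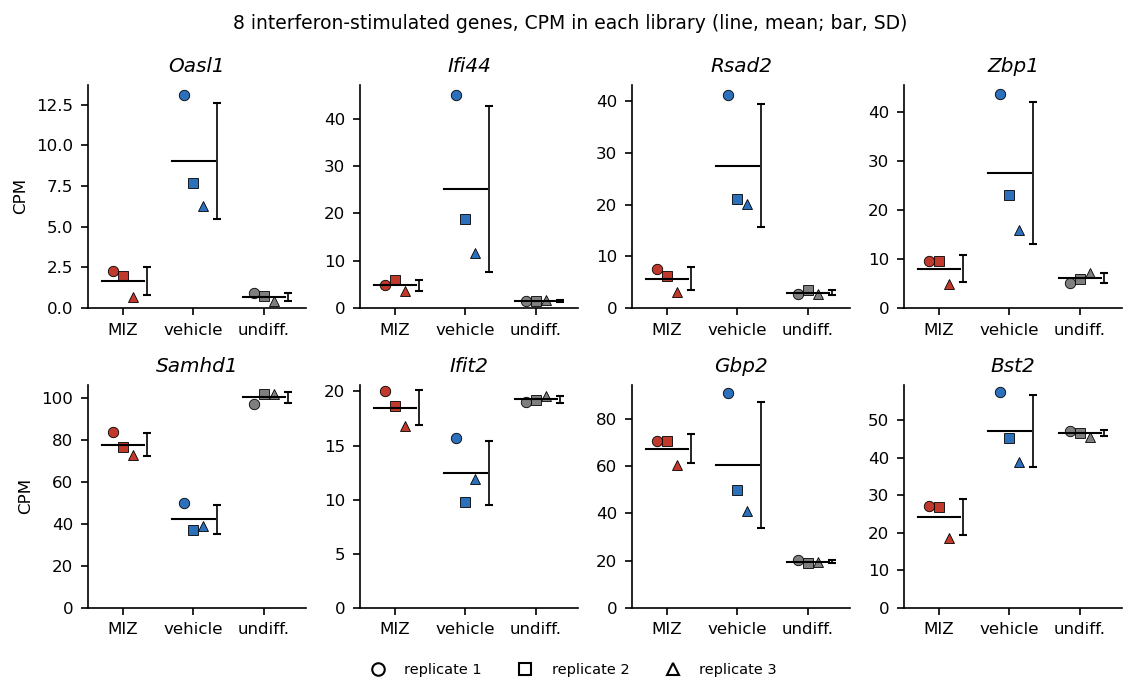
CPM of 8 of the genes in each library (symbols mark replicates 1 to 3; line, mean; bar, SD; n = 3 per group). Oasl1, Ifi44, Rsad2 and Zbp1 are highest in vehicle cells, Samhd1 and Ifit2 are lowest there, Gbp2 is high in both differentiated groups and Bst2 is lowest in MIZ cells, and vehicle replicate 1 is the highest vehicle library in all 8 panels.

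The spread within groups was itself shared among the 32 other genes. Vehicle replicate 1 was the highest vehicle library for all 32, by a median of 0.61 on the log2 scale above the group mean, against medians of -0.19 and -0.38 in vehicle replicates 2 and 3. MIZ replicate 3 was the lowest MIZ library for all 32, with a median deviation of -0.41, against 0.23 and 0.20 in MIZ replicates 1 and 2. Over all genes tested the median deviation of every library lay between -0.014 and 0.008, but scaling between libraries holds this median near 0. It therefore cannot show whether other genes also deviated. Raw counts of library pairs were also compared over all expressed genes, by chi-square per degree of freedom. It was 26.5 and 42.3 for vehicle replicate 1 with replicates 2 and 3, against 8.13 between replicates 2 and 3. For MIZ replicate 3 with replicates 1 and 2 it was 15.4 and 9.34, against 6.44 between those. The median coefficient of variation of the 32 genes was 24.5% in MIZ, 40.0% in vehicle and 7.01% in undifferentiated cells, where genes over 1 CPM had medians of 5.66%, 7.08% and 4.12%. Their summed level was 860, 834 and 604 CPM in MIZ cells, against 1670, 962 and 855 CPM in vehicle cells and 667, 706 and 724 CPM in undifferentiated cells, so that MIZ replicate 1 lay just above vehicle replicate 3.

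Ifi27 and Ifi27l2a deviated less in these libraries than the median of the 32 other genes. In vehicle replicate 1 Ifi27 deviated by 0.11 and Ifi27l2a by 0.12 on the log2 scale, and in MIZ replicate 3 the deviations were 0.07 for Ifi27, -0.01 for Ifi27l2a and 0.01 for Ifi27l2b. Ifi27l2b deviated by 0.36 in vehicle replicate 1, where it had 6 counts. Small deviations were not particular to the family. Irf1 and Samhd1 deviated by -0.03 and -0.09 in MIZ replicate 3 and by 0.28 and 0.26 in vehicle replicate 1. The difference in spread between the family and the other genes was not tested.

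**Figure D4:**
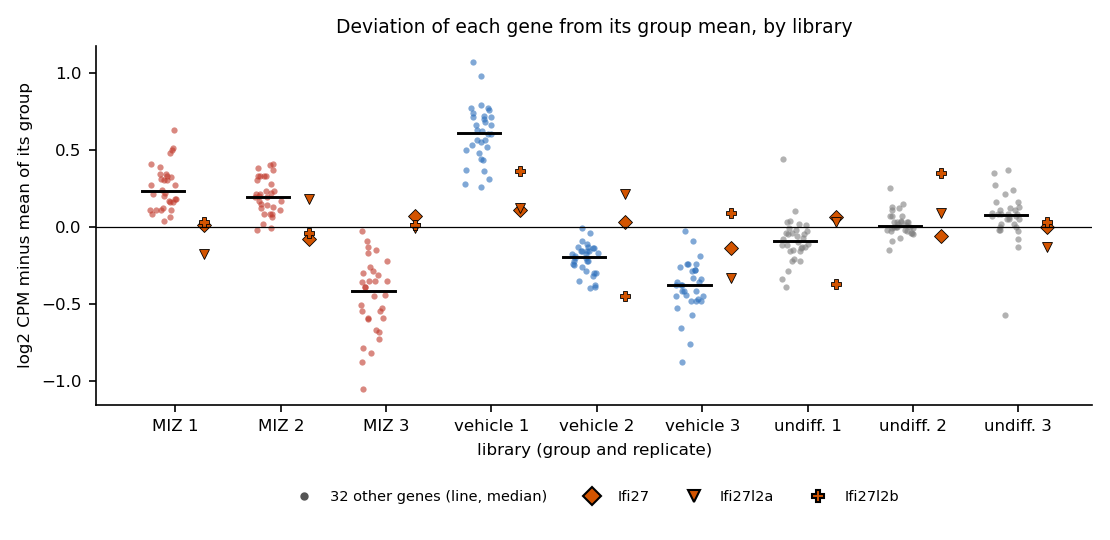
Log2 CPM minus the mean of its group (y axis) for the 32 other genes (dots; line, median) and the Ifi27 family (orange symbols) in each library. The dots lie above 0 in vehicle replicate 1 and below 0 in MIZ replicate 3, with medians of 0.61 and -0.41, whereas Ifi27 stays within 0.14 of its group mean in all 9 libraries.

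Calls were therefore also counted without these libraries. Without vehicle replicate 1, 8 genes were higher and 19 lower in MIZ than in vehicle cells, Ddx58, Gbp2, Ifi35 and Trim30a joining the higher ones and Oas1a and Tap1 leaving the lower ones. The median log2 fold change was then -0.46. Without MIZ replicate 3 the calls were 4 higher and 19 lower, with a median of -0.72. Without both, 9 were higher and 19 lower, with a median of -0.31. Over all genes, the shares called higher were 36.6% without vehicle replicate 1, 34.1% without MIZ replicate 3 and 35.7% without both. The shares called lower were 35.7%, 34.4% and 35.8%. In MIZ against undifferentiated cells the higher calls numbered 19 without vehicle replicate 1, 16 without MIZ replicate 3 and 23 without both. The lower calls numbered 5, 2 and 5. The shares of all genes were 35.9%, 31.9% and 34.9% higher and 35.6%, 31.4% and 34.9% lower. Vehicle replicate 1 belongs to neither group of this last comparison and enters it through the shared spread, scaling and gene filter. Ddx58, for example, kept its log2 fold change of 0.34 while its SE went to 0.0838 without that library, against 0.197 with it. In vehicle against undifferentiated cells 20 genes were higher and 5 lower without vehicle replicate 1, where 36.4% of all genes were higher and 41.8% lower. Dhx58, Gbp7, Parp14 and Tap1 left the higher ones, and Oas1a and Trim30a joined the lower ones. The 3 Ifi27 genes and Samhd1, Ifit2, Oasl1, Ifi44, Rsad2 and Zbp1 kept their calls in MIZ against vehicle under each of 18 alternatives.

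Markers of other cell types differed between the same groups and libraries. The 15 leukocyte and macrophage markers summed to 1620, 1380 and 1190 CPM in MIZ cells, against 1120, 653 and 726 CPM in vehicle cells and 6690, 6850 and 6630 CPM in undifferentiated cells. In this sum vehicle replicate 1 was thus also the highest vehicle library and MIZ replicate 3 the lowest MIZ library. This was not particular to leukocyte markers. It held for preadipocyte markers as well, and the reverse held for adipocyte markers. Lyz2 and Adgre1 weigh most in the leukocyte sum of vehicle cells (means of 193 and 191 CPM) and MIZ cells (481 and 399 CPM). In undifferentiated cells Lyz2 and Mrc1 do (2420 and 1400 CPM), and Adgre1 averaged 230 CPM there. Not every marker followed the sum. Cd68 had 1053, 1951 and 2321 counts and Mrc1 1112, 1735 and 2316 counts in vehicle replicates 1 to 3, where total counts were 28760721, 50262228 and 48121369. The part of this list in the results was not tested, and none of its markers was at 0 in all libraries. Of its 15 markers, 8 were higher and 2 lower in MIZ than in vehicle cells. Among all genes, 35.9% were higher and 35.1% lower. Of 10 markers of lymphocytes and plasmacytoid dendritic cells, 8 were below the filter, with Cd3e and Cd3d at 0 in all libraries, and Bst2 is itself on that list. Adipocyte markers summed to 1010, 1130 and 1260 CPM in MIZ cells, against 14400, 14700 and 15200 CPM in vehicle cells. In undifferentiated cells they summed to 78.2 to 79.9 CPM, although the labels call all 9 libraries primary adipocytes. Of these markers 7 of 7 tested were lower in MIZ than in vehicle cells. Preadipocyte markers summed to 1460, 1310 and 1210 CPM in MIZ cells, against 600, 584 and 538 CPM in vehicle cells. In undifferentiated cells they summed to 1670 to 1830 CPM. Of the 8, 3 were higher, 1 lower and 4 not called in MIZ against vehicle. Pdgfrb averaged 522 CPM in MIZ and 81 CPM in vehicle cells, and Cd34 0.681 and 1.38 CPM. Endothelial markers summed to 5.81 to 6.12 CPM in MIZ cells, against 9.9 to 11.3 CPM in vehicle cells and 81.2 to 103 CPM in undifferentiated cells. Of these markers 4 of 7 tested were lower in MIZ than in vehicle cells. Pecam1, Cdh5, Kdr and Tie1 averaged under 1 CPM in both of these groups. Mural cell markers summed to 91.7 to 94.1 CPM in MIZ cells, against 107 to 115 CPM in vehicle cells and 91.2 to 102 CPM in undifferentiated cells. Of 5 tested, 2 were higher and 2 lower in MIZ than in vehicle cells, where 35.9% of all genes were higher and 35.1% lower. The part of these lists in the results was not tested.

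Other genes of the pathway were taken from lists of 151 genes, of which 122 were tested. In MIZ against vehicle 28 were higher and 60 lower, where 35.9% of all genes were higher and 35.1% lower. In MIZ against undifferentiated 28 were higher and 39 lower, where 33.7% of all genes were higher and 33.3% lower. In vehicle against undifferentiated 48 were higher and 33 lower, where 36.2% of all genes were higher and 41.5% lower, so that the lower count in MIZ against undifferentiated and the higher count in vehicle against undifferentiated cells lay near these shares. Of the 21 interferon genes only Ifnz passed the filter, and it was called in none of the 3 comparisons. Ifnb1, the interferon-beta gene, had 0, 1 and 3 counts in MIZ libraries, against 2, 1 and 1 in vehicle libraries and 0 in each undifferentiated library, so that a difference was not detectable at this depth. Interferon protein was not measured here.

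The type I receptor genes differed little. Ifnar1, a subunit of the type I receptor, averaged 118 CPM in MIZ, 100 CPM in vehicle and 126 CPM in undifferentiated cells, with a log2 fold change of 0.23 ± 0.07 (adjusted p = 0.0095) in MIZ against vehicle. Ifnar2, the other subunit, differed by 0.17 ± 0.07 (adjusted p = 0.045). The interferon-gamma receptor subunits differed in opposite directions, Ifngr2 by 0.71 ± 0.07 (adjusted p = 3.43e-06) and Ifngr1 by -0.86 ± 0.05 (adjusted p = 6.55e-08).

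Among 15 sensors and adaptors upstream of interferon, 6 were higher and 6 lower in MIZ than in vehicle cells, or 40% each, near the 35.9% and 35.1% of all genes. Mavs, the adaptor of RIG-I and MDA5, averaged 28.3 CPM in MIZ, 63.0 CPM in vehicle and 31.2 CPM in undifferentiated cells, a log2 fold change of -1.16 ± 0.08 (adjusted p = 1.5e-07) in MIZ against vehicle. Sting1, the adaptor of the DNA sensor cGAS, averaged 23.1 CPM in MIZ, 11.5 CPM in vehicle and 29.9 CPM in undifferentiated cells and was higher in MIZ than in vehicle cells, by 1.02 ± 0.10 (adjusted p = 2.87e-06). Cgas itself had a log2 fold change of 0.27 ± 0.14 (adjusted p = 0.105) in MIZ against vehicle and was lower than in undifferentiated cells in both differentiated groups, by -0.94 with MIZ (adjusted p = 8e-05) and -1.21 with vehicle (adjusted p = 7.61e-06).

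Of 47 further type I interferon-stimulated genes tested, 11 (23.4%) were higher and 22 (46.8%) lower in MIZ than in vehicle cells (median -0.52 on the log2 scale). Over all genes 35.9% were higher and 35.1% lower. The largest rises at 1 CPM or more were Apol9b (2.6 ± 0.25, adjusted p = 3.11e-06), Apol9a (1.35 ± 0.23, adjusted p = 0.000297) and Ifitm1 (1.14 ± 0.31, adjusted p = 0.00623). Apol9a and Apol9b are close copies, so how reads were split between them is unknown, and Ifitm1 encodes a membrane protein that blocks viral fusion. The largest falls were Ifi205 (-2.26 ± 0.19, adjusted p = 9.73e-07) and Ifi203 (-2.04 ± 0.21, adjusted p = 4.66e-06), HIN-200 genes, and Oas1g (-1.97 ± 0.46, adjusted p = 0.00261). Ifi205 averaged 8.97 CPM in MIZ, 43.3 CPM in vehicle and 2.09 CPM in undifferentiated cells.

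Of 32 genes of the interferon-gamma response and antigen presentation tested, 3 (9.38%) were higher and 22 (68.8%) lower in MIZ than in vehicle cells. Their median was -0.80 on the log2 scale, and over all genes 35.9% were higher and 35.1% lower. Single log2 fold changes in the list ran from -2.52 to 2.39, and Ifi30 and Irgm1 were among the higher genes. H2-Ab1, an MHC class II chain, was lower by -2.50 ± 0.26 (adjusted p = 6.64e-06), although it averaged only 1.46 CPM in MIZ, 8.27 CPM in vehicle and 0.402 CPM in undifferentiated cells. Iigp1, an immunity-related GTPase, was lower by -2.28 ± 0.29 (adjusted p = 3.15e-05). Cxcl10, the chemokine that draws T cells, averaged 20.2 CPM in MIZ, 54.8 CPM in vehicle and 1.95 CPM in undifferentiated cells, a log2 fold change of -1.41 ± 0.41 (adjusted p = 0.00971) in MIZ against vehicle and 3.37 ± 0.52 (adjusted p = 0.000163) in MIZ against undifferentiated cells.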

How the data were processed

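RNA from 9 libraries of primary SVF cells (3 MIZ, 3 vehicle and 3 undifferentiated) was rRNA-depleted, poly-A-selected and sequenced as paired reads, by the paper's methods. Reads were trimmed with Trim Galore 0.6.7 and aligned with STAR to GRCm38 (mm10). The authors deposited raw gene counts, 1 table per library, not normalized. The methods name STAR's gene counting and the submitters' processing notes name HTSeq. The annotation release and strand setting are not given in the sources used here. Total counts were 28760721 to 55288455 per library, lowest in vehicle replicate 1.

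Counts were fitted with edgeR 4.0.16 (R 4.3.3) by its quasi-likelihood test in 1 model of all 9 libraries with TMM normalization, after dropping genes that did not reach 5 counts in 3 or more libraries. P-values were adjusted over 17173 genes by the Benjamini-Hochberg method and called under 0.05. The study's own tool, DESeq2 (1.42.0 here), was an alternative, with other normalizations, filters, designs and each library left out. CPM use TMM library sizes, log2 CPM a prior count of 2, and levels per kb the exon length of GENCODE M21. Transcripts were aligned with blastn.

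The members and lists were chosen with earlier results of these data known. Per-library values are given for the Ifi27 family and, per comparison, for up to 4 called rises and 4 called falls of at least 1 CPM with no overlap between groups. Irf7, Isg15 and the neighbours of the Ifi27 cluster were added by role or after their values were seen. Pathway genes are up to 3 called in each direction per list, with Ifnar1, Ifnar2, Ifnb1, Cgas, Sting1 and Mavs always named. Sting1 is listed under its older symbol Tmem173. Protein sequences were not used here, and 1 pathway gene of the named set is not reported here.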

Additional observations from a re-analysis of the deposited data

How the results depend on the processing

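The counts among the 35 genes were refitted under 9 other analysis settings and without each library in turn. The other settings gave 4 to 5 higher and 19 to 23 lower calls in MIZ against vehicle, 13 to 19 higher and 3 to 5 lower in MIZ against undifferentiated, and 20 to 25 higher and 3 lower in vehicle against undifferentiated cells. The 5 lower calls in MIZ against undifferentiated cells came from a fit of only the 6 libraries compared. Leaving out 1 library gave 4 to 8 higher and 19 to 25 lower calls in MIZ against vehicle, 9 to 19 higher and 2 to 5 lower in MIZ against undifferentiated, and 20 to 28 higher and 3 to 5 lower in vehicle against undifferentiated cells.

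Leaving out vehicle replicate 1 and MIZ replicate 3 together, an alternative chosen after seeing the data, gave 9 higher calls in MIZ against vehicle, 23 higher and 5 lower in MIZ against undifferentiated and 5 lower in vehicle against undifferentiated cells. The sign turned for Ddx58 in MIZ against vehicle, at 0.30 without vehicle replicate 1 (range -0.22 to 0.30 with each library left out) and 0.39 without both libraries. It turned for Dhx58 in the same comparison, at 0.30 without both (range -0.30 to 0.16 with each library left out). It turned for Oas1a in vehicle against undifferentiated cells, at -0.56 without vehicle replicate 1 (range -0.56 to 0.38) and -0.55 without both. The cause was not tested.

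The deviations of same-numbered libraries of different groups had correlations over genes from -0.0447 to 0.063. Those of different-numbered libraries ran from -0.0544 to 0.0681. With 3 libraries per group this cannot show whether the numbers stand for shared animals or plates, and the main fit used no pairing. With the replicate number as a block, 4 genes were higher and 23 lower in MIZ against vehicle, 14 higher and 4 lower in MIZ against undifferentiated, and 23 higher and 3 lower in vehicle against undifferentiated cells. Scaling by total counts alone moved the median of all genes to 0.16 in MIZ against vehicle and to -0.25 in vehicle against undifferentiated cells, and changes are then to be read against those medians. For the other pathway genes, 6 settings gave 27 to 35 higher and 47 to 65 lower calls in MIZ against vehicle. Counts of these genes without single libraries, and alternatives for the separate pathway lists, are not reported here. How far values of single pathway genes rest on vehicle replicate 1 is therefore not shown.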
